A study of Mus musculus with 44 samples.

Results

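The wild-type round spermatids of the 2 experiments of this mouse series were compared with each other, as 11 of the 44 arrays. The 11 arrays were chosen by their titles alone: 6 came from wild-type mice of experiment 1 and 5 from wild-type mice of experiment 2, and every gene measured on them was described. Experiment 1 set wild-type mice beside mice with the Th2b+/tag genotype, whose TH2B protein carries His, Flag and HA tags at its C-terminal end. Experiment 2 set wild-type mice beside th2bkd mice, which lack TH2B according to the study's design. The 11 wild-type arrays carry neither allele, all came from adult mice, and all used total RNA of RIN 7 or more. The labels call the arrays of a group biological replicates, the age in weeks is not given, and the genotype field of the labels names brdt in place of Th2b, so that groups were taken from the titles and the design. Strain, breeding colony, chip, scan and cell purification are not given in the sources used here. Whatever differed between the experiments in any of these differed between the 2 groups, so that strain, colony and batch cannot be told apart.

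Round spermatids are the haploid cells that follow meiosis in the testis. They build the acrosome, the vesicle with which a sperm meets the egg, and the flagellum, and they store the messenger RNAs of transition proteins and protamines, which later replace histones on the sperm DNA. TH2B, encoded by H2bc1, is a histone H2B of male germ cells that is placed in chromatin during meiosis and is still there in spermatids.

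Values are normalized log2 intensities of array probes. Each gene is represented by its brightest probe, so that values compare samples and not genes. Differences are experiment 2 minus experiment 1, and a gene is said to have risen or fallen where the adjusted p of limma's test over all 12259 genes was under 0.05. The labels were checked with 8 measured markers of round spermatids, whose mean level was 12.19 to 12.40 on the experiment 1 arrays and 12.42 to 12.50 on the experiment 2 arrays. In wild-type spermatocytes it was 10.58 to 12.14 in experiment 1 and 10.58 to 10.93 in experiment 2, and spermatocyte replicate 1 of experiment 1 lay close to the spermatids. The number of probes above background was 16150 to 17079 on the experiment 1 arrays and 15997 to 17463 on the experiment 2 arrays, and median raw intensities were 93.4 to 108 and 97.5 to 118. No 2 of the 11 arrays held identical values. Replicate 1 of experiment 1 stood apart, with the 16150 probes above background and a score of 39.2 on the second principal component, where the other 5 arrays of its group lay between -15.2 and -1.47. The first component held 54.0% of the variance and separated the experiments, with -31.5 to -20.2 for experiment 1 and 27.8 to 32.4 for experiment 2. Pearson's r between arrays, over genes, was 0.976 to 0.993 within experiment 1, 0.990 to 0.992 within experiment 2 and 0.957 to 0.977 between them.

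Between the wild-type spermatids of the experiments 3408 of 12259 genes passed the test, which is 27.8% of the genes tested. Of these, 1775 (14.5%) were higher in experiment 2 and 1633 (13.3%) were lower. Most differences were small: the median was 0.64 among genes that rose and -0.61 among genes that fell, while the median over all genes was -0.01. A difference of at least 2-fold was passed by 587 genes (4.79%), 346 of them higher (2.82%) and 241 lower (1.97%). At least 4-fold differences were fewer, 25 higher and 43 lower, and at least 8-fold ones numbered 6 higher and 16 lower. The values of the 2 groups did not overlap for 2607 genes, 21.3% of those tested. The SD between replicates, as the median over genes, was 0.24 in experiment 1 and 0.17 in experiment 2. Among the 7673 genes above background on all 11 arrays, 2592 passed (33.8%), 1322 of them higher, and 394 did so by at least 2-fold. The size of a difference depends on the background correction: without it 3365 genes passed but only 164 by at least 2-fold.

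**Figure D1:**
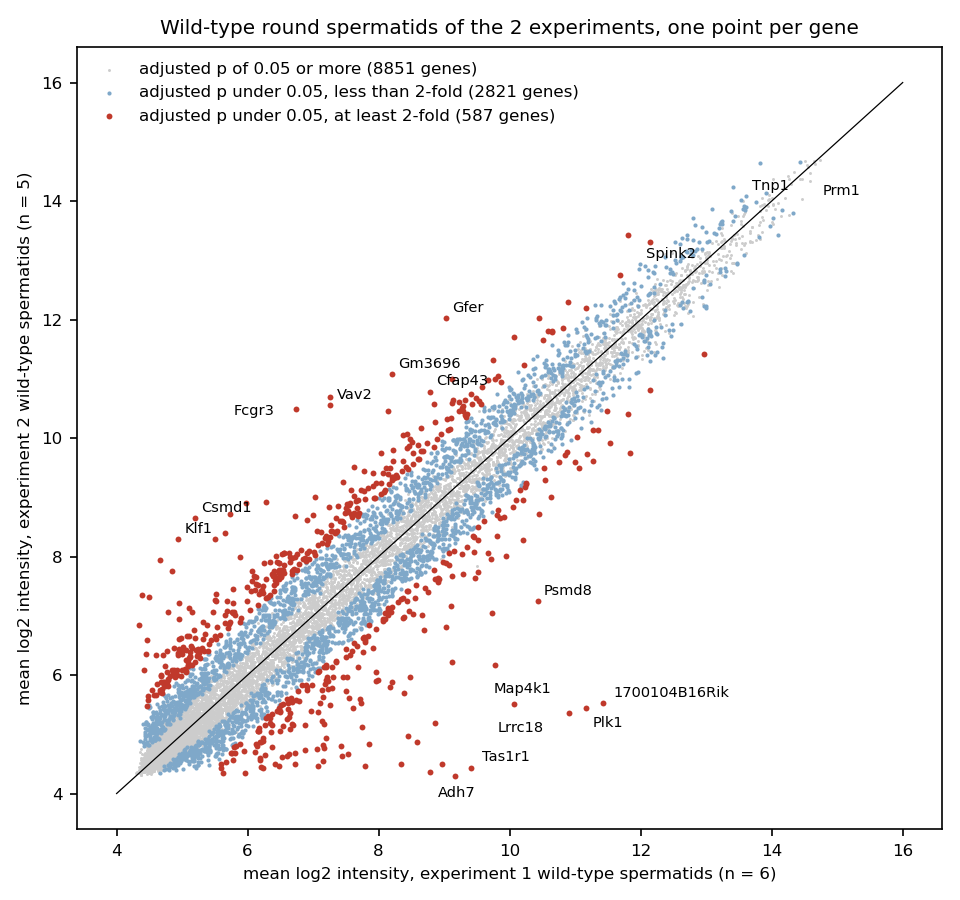
Mean normalized log2 intensity of each of 12259 genes in wild-type round spermatids of experiment 1 (horizontal axis, n = 6) and experiment 2 (vertical axis, n = 5), 1 point per gene, with the line of equal levels. Red points are the 587 genes past the threshold by at least 2-fold; Plk1, Lrrc18 and 1700104B16Rik lie far below the line and Fcgr3, Csmd1 and Klf1 far above it, while Prm1 and Tnp1 at the top lie close to it.

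The genes that fell furthest were bright in every experiment 1 array, each read by its brightest probe alone. 1700104B16Rik, an uncharacterized transcript, ran from 11.08 through a median of 11.52 to 11.59 in experiment 1. It read 5.29, 5.45, 5.59, 5.52 and 5.78 in replicates 1 to 5 of experiment 2. All experiment 2 arrays were far below all experiment 1 arrays, a difference of -5.91 with an SE of 0.12 (59.9-fold, adjusted p = 1.99e-35). Plk1, the polo-like kinase that drives cell division, was 10.50, 11.23 and 11.67 (lowest, median, highest) in experiment 1. Its 5 values in experiment 2 were 5.30, 5.82, 5.09, 5.40 and 5.57. The groups were again far apart, by -5.74 with an SE of 0.20 (53.3-fold, adjusted p = 7.05e-26). Map4k1, a kinase known from signalling in lymphocytes, was 9.98, 10.02 and 10.27 in experiment 1. Its experiment 2 values were 5.61, 5.59, 5.23, 5.51 and 5.64, a difference of -4.55 with an SE of 0.14 (23.5-fold, adjusted p = 4.62e-27). The Map4k1 groups did not overlap, and the spread within each was below 0.5. Psmd8, a subunit of the regulatory particle of the proteasome, was 9.92, 10.51 and 10.66 in experiment 1. In experiment 2 it was 7.06, 7.03, 7.60, 7.12 and 7.41, a difference of -3.18 with an SE of 0.21 (9.09-fold, adjusted p = 1.25e-15). Psmd8 was thus still above background on all 5 arrays of experiment 2, with no overlap between the groups. Fcmr, an Fc receptor for IgM, fell by 3.61, and Cpn1, the catalytic chain of carboxypeptidase N, fell by 3.70. Casp1, the protease of inflammasomes, fell by 2.63, Cd96, a receptor of lymphocytes, fell by 2.68, and Pde6h, a phosphodiesterase subunit of cone photoreceptors, fell by 2.62. These 5 genes also showed no overlap between the groups, as did 21.3% of all genes tested. Their choice among the largest falls made that likely.

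Another set of genes was above background on all 6 arrays of experiment 1 and on none of the 5 of experiment 2. There were 36 such genes, and for them only a lower bound of the fold can be given. The bound sets the mean of the bright group against the lowest signal above background on each array of the other. Tas1r1, a subunit of the umami taste receptor, was 8.66, 9.53 and 9.96 in experiment 1. In experiment 2 it was 4.54, 4.36, 4.54, 4.39 and 4.35, so that it was at least 22.1-fold lower (adjusted p = 1.99e-14). Every experiment 1 value was far above every experiment 2 value. Adh7, an alcohol dehydrogenase that acts on retinol, was 8.93, 9.14 and 9.58 against 4.34, 4.32, 4.25, 4.27 and 4.32, at least 18.5-fold lower (adjusted p = 2.42e-16). Spata7, a protein of the photoreceptor cilium also made in the testis, was 8.75, 8.91 and 9.46 against 4.36, 4.43, 4.36, 4.52 and 4.79, at least 16.2-fold lower (adjusted p = 1.74e-21). As for Tas1r1, the Adh7 and Spata7 values of experiment 2 lay in the narrow band of probes without signal. Cstdc3, of the stefin family, was at least 14.2-fold lower, Defb11, a beta-defensin, at least 10.5-fold and Grtp1, a growth hormone regulated TBC protein, at least 7.15-fold. Uap1, which makes UDP-N-acetylglucosamine, was at least 5.99-fold lower and Dmkn, dermokine, at least 5.63-fold lower.

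Among the genes that rose, Fcgr3, an Fc receptor for IgG known from macrophages and natural killer cells, led. It was 6.41, 6.76 and 7.10 in experiment 1. It read 10.40, 10.57, 10.54, 10.42 and 10.50 in experiment 2, a difference of 3.75 with an SE of 0.16 (13.4-fold, adjusted p = 1.26e-22). All 5 experiment 2 arrays lay within 0.2 of each other and above all experiment 1 arrays. Csmd1, a membrane protein that restrains complement, was 4.86, 5.12 and 5.87 in experiment 1, above background on 4 of 6 arrays. In experiment 2 it was 8.66, 8.31, 8.65, 8.90 and 8.74, a difference of 3.45 with an SE of 0.17 (adjusted p = 7.97e-21). The Csmd1 groups did not overlap. Klf1, the transcription factor of red cell precursors, was 4.46, 4.89 and 5.48 in experiment 1, above background on 3 of 6 arrays. Its experiment 2 values of 8.07, 8.23, 8.45, 8.36 and 8.39 were all higher, by 3.36 with an SE of 0.16 (10.3-fold, adjusted p = 4.18e-21). Gfer, a sulfhydryl oxidase of the mitochondrial intermembrane space, was 8.90, 8.98 and 9.19 in experiment 1. In experiment 2 it was 12.04, 12.08, 12.05, 11.84 and 12.11, a difference of 3.00 with an SE of 0.10 (7.99-fold, adjusted p = 4.62e-27). Gfer was bright on every array, and its 2 groups were each narrow and far apart. Vav2, a signalling protein, was 6.83, 7.30 and 7.70 in experiment 1. In experiment 2 it was 10.88, 11.23, 10.21, 10.19 and 10.29, a difference of 3.30 with an SE of 0.40 (9.84-fold, adjusted p = 2.07e-08). Replicates 1 and 2 were the highest, and no array of experiment 2 reached down to experiment 1. Cyp2c55, a cytochrome P450 enzyme, rose by 3.28, Ptpro, a receptor tyrosine phosphatase, by 2.91, and Rdm1, a protein of DNA repair, by 2.78. Vars2, the valyl-tRNA synthetase of mitochondria, rose by 2.92, Man2a2, a mannosidase of the Golgi, by 2.63, and Sirt2, a deacetylase, by 2.32.

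The reverse set, above background on none of 6 experiment 1 arrays and all 5 of experiment 2, held 34 genes. Rtkn2 was 4.33, 4.39 and 4.45 in experiment 1 against 7.15, 7.38, 7.52, 7.36 and 7.38 in experiment 2, at least 5.24-fold higher (adjusted p = 3.71e-23). Olfr611, an odorant receptor, was at least 5.09-fold higher, Defa20, an alpha-defensin of the gut, at least 3.66-fold and Cmya5, a protein of muscle, at least 2.61-fold. Abca6, a lipid transporter, was at least 2.17-fold higher, 2310010J17Rik at least 1.85-fold, Ephb1, a receptor for ephrins, at least 1.71-fold and Faim, an inhibitor of apoptosis, at least 1.62-fold. None of these 8 genes had an experiment 2 value within the experiment 1 range. Their choice by signal over background and by the largest bounds made that likely, and 21.3% of all genes tested did not overlap.

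**Figure D2:**
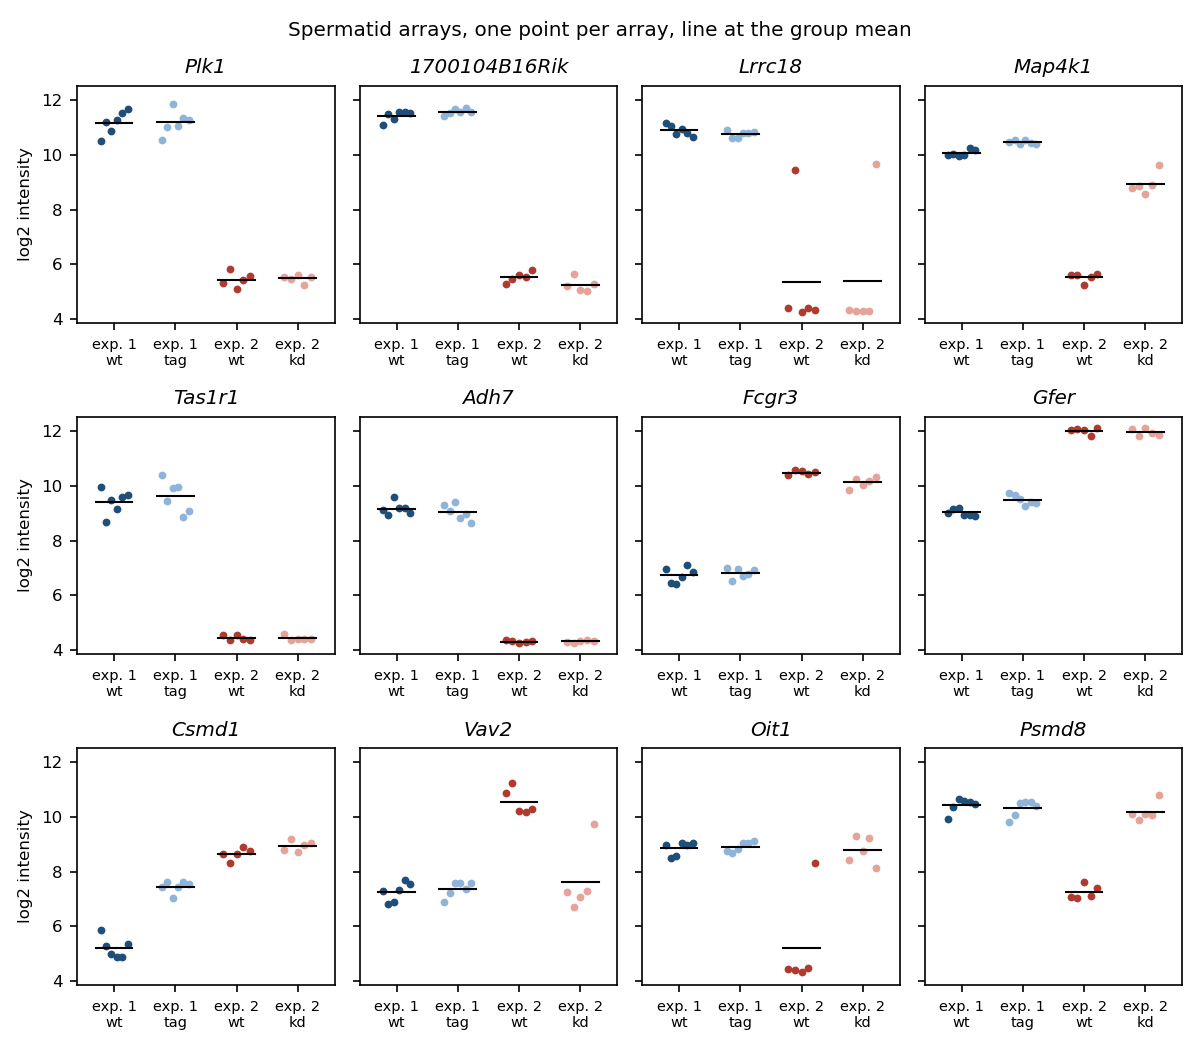
Normalized log2 intensity of 12 genes on each spermatid array, 1 point per array: wild type (dark blue, n = 6) and Th2b+/tag (light blue, n = 6) of experiment 1, wild type (dark red, n = 5) and th2bkd (light red, n = 5) of experiment 2, with a line at each group mean. Most wild-type groups are narrow and apart, a single array stands out for Lrrc18, where replicate 2 of experiment 2 reads 9.44, and Vav2, Oit1 and Psmd8 on most th2bkd arrays lie near the experiment 1 level.

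For a few genes the arrays of 1 experiment fell into separate levels. Lrrc18, a leucine-rich repeat protein, was 10.65, 10.87 and 11.17 in experiment 1 and 4.40, 9.44, 4.25, 4.39 and 4.31 in experiment 2. Replicate 2 was the only experiment 2 array above background, and it still lay below experiment 1. The difference of -5.54 with an SE of 0.73 (adjusted p = 8.87e-08) became -6.56 without that array. In the wild-type spermatocytes of experiment 2, the replicate of the same number was again the high one, with 6.51 against 4.31 to 4.42. Oit1 was 8.50, 8.97 and 9.06 in experiment 1 and 4.42, 4.41, 4.33, 4.45 and 8.32 in experiment 2. Replicate 5 stood apart, and without it the difference moved from -3.67 to -4.45. Spermatocyte replicate 5 of experiment 2 read 7.18 and the other 4 read 4.29 to 4.43. Cops8, a subunit of the COP9 signalosome, was 7.98, 8.52 and 8.62 in experiment 1 and 4.55, 7.14, 4.29, 4.41 and 4.48 in experiment 2. Here replicate 2 stood apart, in spermatocytes too, with 8.81 there. The Cops8 difference was -3.47, and -4.01 without replicate 2. Psg19, a pregnancy-specific glycoprotein, read 6.17 in replicate 2 and 4.46 to 4.53 in the other 4, but only 4.63 in spermatocyte replicate 2, and its difference was -3.03 (-3.36 without that array).

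A gap of at least 2 between arrays of 1 group, with at least 2 arrays on each side, was found for 6 named genes. In experiment 1, Cptp, a transfer protein for ceramide-1-phosphate, was 9.42 to 10.48 in replicates 2, 3 and 4 and 4.27 to 4.55 in the other 3. The spermatocytes of the same numbers read 9.03 to 10.03 and the others 4.32 to 4.37. In experiment 2 all 5 spermatid arrays were high for Cptp, at 10.62, 10.55, 10.69, 10.79 and 10.79. The difference of 3.44 with an SE of 0.91 (adjusted p = 0.0032) was thus a difference from 3 of the 6 experiment 1 arrays, and it ran from 2.84 without replicate 6 to 4.08 without replicate 4 of experiment 1. Guca2b, the gut peptide uroguanylin, was 6.38 to 7.34 in replicates 2, 4 and 6 of experiment 1 and 4.27 to 4.36 in the other 3. Spermatocytes of the same numbers read 6.51 to 7.22 and the others 4.33 to 4.52. In experiment 2, 4933427D14Rik was 4.57, 4.52, 8.69, 8.41 and 4.89, and its spermatocytes read 8.50 and 8.59 in replicates 3 and 4 and 5.46 to 5.73 in the other 3. It was 8.74, 9.15 and 9.38 in experiment 1, and the difference of -2.91 became -3.53 without replicate 3 and -3.46 without replicate 4 of experiment 2. 1700028M03Rik was higher in replicates 1, 2 and 3 of experiment 2, at 6.60 to 7.08 against 4.40 and 4.49, and its spermatocyte levels were 4.76 to 4.87 against 4.35 and 4.42. Fscn3, the fascin of the testis, was 8.65 to 9.64 in replicates 2, 4 and 5 and 5.74 in both others, with 4.91 to 6.44 against 4.32 and 4.77 in spermatocytes. The sixth gene, H2bc4, is described with the histones below.

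**Figure D3:**
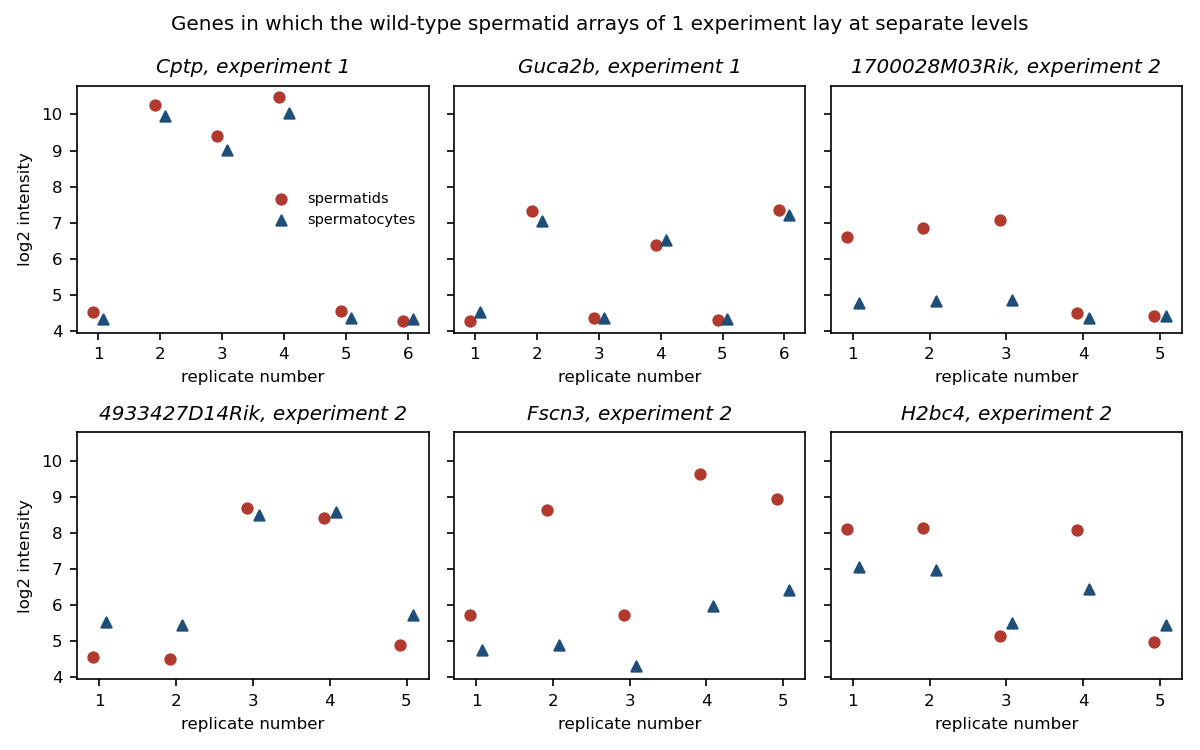
Normalized log2 intensity (vertical axis) by replicate number (horizontal axis) for the 6 genes at separate levels, in the wild-type spermatids (red circles) and wild-type spermatocytes (blue triangles) of the experiment named above each panel, 1 point per array. For Cptp, Guca2b and 4933427D14Rik the same replicate numbers are high in both cell types; for 1700028M03Rik the spermatocyte values, 4.76 to 4.87 against 4.35 and 4.42, are close together.

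Other arrays of the same experiments gave 2 further readings of these differences. The th2bkd spermatids of experiment 2 against the Th2b+/tag spermatids of experiment 1 share no array with the wild-type comparison, but they differ in their modified alleles as well. In that comparison 5228 genes passed (42.6% of those tested), and 2449 of them passed in the same direction in the wild types, which is 71.9% of the 3408 and 46.8% of the 5228. Another 93 genes passed in opposite directions. Of the 587 genes with an at least 2-fold difference, 514 (87.6%) were called the same way, 9 the other way and 64 were not called. In wild-type spermatocytes, experiment 2 against experiment 1, 3158 genes passed (25.8%), and 1841 passed in the same direction in both cell types, 54.0% of the 3408 and 58.3% of the 3158, with 9 opposite. Of the 587 genes, 490 (83.5%) were called the same way in spermatocytes. The same direction in all 3 comparisons was found for 432 of the 587 (73.6%). The labels do not say whether spermatids and spermatocytes of the same number come from the same mouse, and in their deviations from the group means 5 of 6 numbers in experiment 1 and 5 of 5 in experiment 2 correlated best with their own number.

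**Figure D4:**
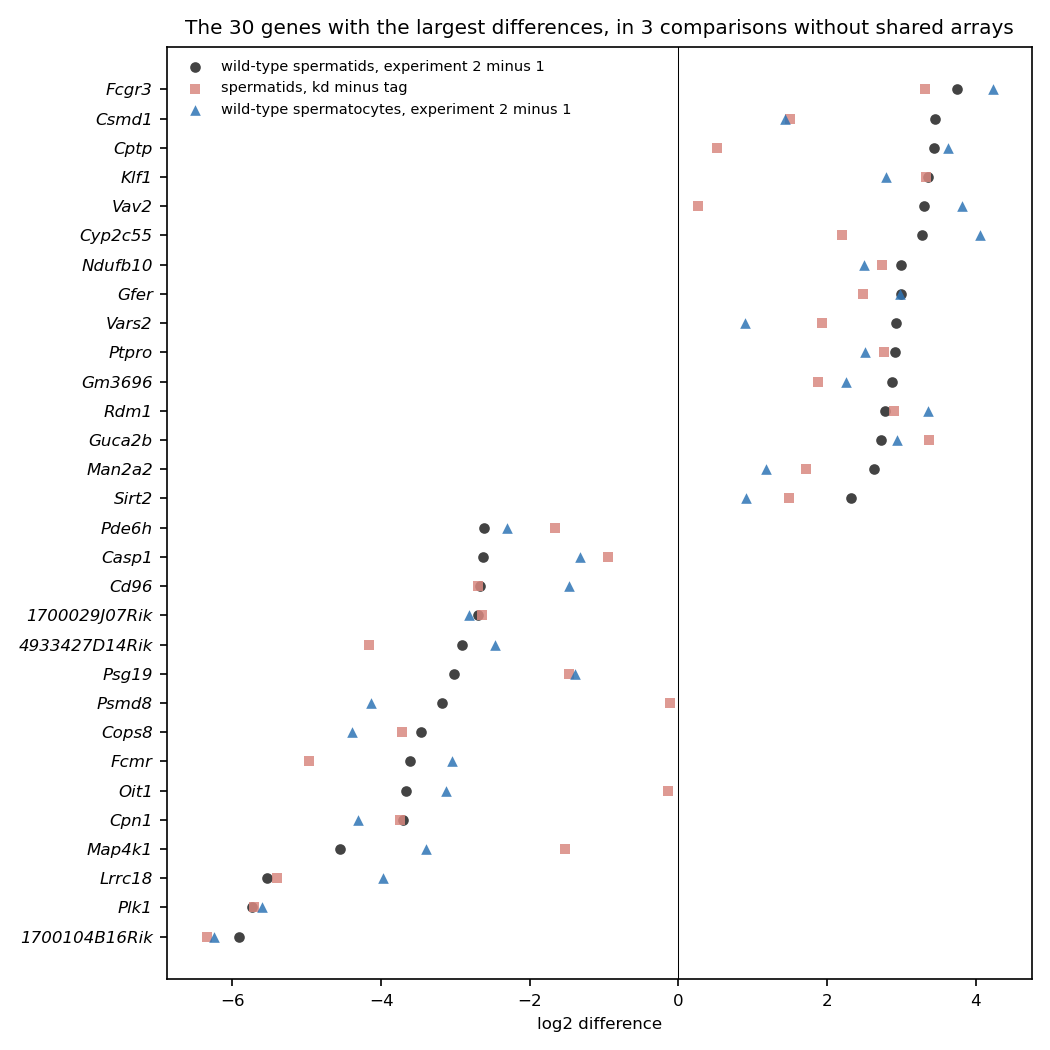
Log2 difference between the experiments (horizontal axis) for the 15 leading genes in each direction (vertical axis) in wild-type spermatids (black circles), in th2bkd minus Th2b+/tag spermatids (light red squares) and in wild-type spermatocytes (blue triangles). All 30 genes lie on the same side of 0 in wild-type spermatids and spermatocytes, and the squares of Cptp, Vav2, Psmd8 and Oit1 lie closest to 0, at 0.51, 0.26, -0.12 and -0.14.

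Among the 15 leading genes in each direction, 4 did not pass between th2bkd and Th2b+/tag spermatids. Vav2 was 3.30 higher in the wild types and 0.26 higher in that comparison (adjusted p = 0.65). Its th2bkd arrays read 7.26, 6.70, 7.08, 7.30 and 9.75, so that only replicate 5 came near the wild types of its experiment. Psmd8 was -3.18 in the wild types and -0.12 in that comparison (adjusted p = 0.70), since its th2bkd arrays read 10.09, 9.90, 10.12, 10.06 and 10.79, within or close to the range of experiment 1. Oit1 was -3.67 in the wild types and -0.14 there (adjusted p = 0.83), with th2bkd arrays at 8.44, 9.29, 8.75, 9.24 and 8.14. Cptp was 3.44 in the wild types and 0.51 there (adjusted p = 0.70), since all 6 Th2b+/tag arrays were high, from 9.53 to 10.51. Map4k1 passed but was smaller, -1.52 against -4.55, and Csmd1 was 1.50 against 3.45, with Th2b+/tag arrays at 7.03 to 7.62. For Vars2 the th2bkd arrays were 6.91, 6.00, 9.35, 6.60 and 9.57, so that replicates 3 and 5 were near the 8.73 to 9.03 of the experiment 2 wild types and the others were lower.

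The difference between the experiments was itself compared between spermatids and spermatocytes, and 205 genes passed that test (1.67%), 105 (0.857%) with a more positive and 100 (0.816%) with a more negative difference in spermatids. With same-numbered spermatid and spermatocyte arrays as a random block 428 passed. Of the 205, 92 (0.75%) differed by at least 2-fold, a number that was 29 with the deposited processed values and 24 without background correction. For Kcnab1, a subunit of potassium channels, the measured difference was 0.77 in spermatids, where no experiment 1 array was above background, and 3.49 in spermatocytes (adjusted p of the test between them = 1.07e-05). The spermatocytes of experiment 2 read 7.56, 7.76, 7.78, 8.80 and 8.13 and all other wild-type arrays were at 5.76 or below. Adh7, Cstdc3, Defb11, Cmya5 and Olfr611 passed this test too, but the spermatids of 1 experiment had no signal over background for them, so that the sizes of their differences in the 2 cell types were not set against each other. Csmd1 rose by 3.45 in spermatids and 1.43 in spermatocytes, and Vars2 was 2.92 and 0.90 higher, the last not called. In the spermatocytes of experiment 1 Csmd1 read 4.42 to 4.81, near the level of probes without signal, so that its 1.43 may be too small. Gm2897 was 2.29 higher in spermatids, and 0.30 higher in spermatocytes, where every array read 4.74 or less. Pnmal1 and Klk1b22, a kallikrein, differed in spermatocytes, by -2.70 and -2.12. In the spermatids of experiment 2 neither had a signal over background, and in those of experiment 1 Pnmal1 had one on 4 of 6 arrays and Klk1b22 on none.

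H2bc1, the gene of TH2B, had a probe without signal over background on all 11 arrays. It was 4.31, 4.42 and 4.65 in experiment 1 and 4.64, 4.40, 4.39, 4.78 and 4.61 in experiment 2, and these values overlap (0.11, adjusted p = 0.60). This probe therefore measured no TH2B mRNA here and says nothing about the labels. H2ac1, the testis H2A gene next to it, was 4.87, 5.01 and 5.10 against 5.02, 5.50, 5.28, 5.21 and 5.52, a difference of 0.31 that did not pass (adjusted p = 0.23).

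Among 8 measured markers of round spermatids 3 rose and none fell, so that 37.5% were called beside 27.8% of all genes, and the median difference was 0.30. Tnp2, a transition protein, was 10.23, 10.47 and 10.94 in experiment 1 and 11.24, 11.15, 11.22, 11.26 and 11.10 in experiment 2, a rise of 0.66 (adjusted p = 0.0078). Tnp1, the other transition protein, rose by 0.47, but it did not pass without replicate 4 of experiment 2 (adjusted p = 0.056) or with cyclic loess (adjusted p = 0.17). Spaca1, a membrane protein of the acrosome, rose by 0.85. Prm1, protamine 1, was 14.50, 14.57 and 14.70 against 14.41, 14.30, 14.50, 14.17 and 14.34, with bright groups that overlapped (-0.24, adjusted p = 0.063). Of 6 transition proteins, protamines and testis linker histones measured, 2 rose and 1 fell (50% called). The fall was that of the linker histone gene H1f6, which was above background on 4 of 6 arrays of experiment 1 and none of experiment 2. It was at least 1.10-fold lower. Without replicate 4 of experiment 2, 1 of the 6 rose, and without replicate 3 of experiment 2, 2 of the 6 and 1 of the 8 markers fell.

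Genes of the sperm head and tail moved in both directions. Of the acrosome and sperm head genes 41.5% were called and of the flagellum and fibrous sheath genes 28.2%, beside 27.8% of all genes. Of 41 acrosome and sperm head genes, 11 rose and 6 fell, with a median of -0.03. Spink2, a protease inhibitor of the acrosome, was 11.58, 12.02 and 12.31 in experiment 1 and 12.92, 13.11, 13.05, 12.68 and 12.94 in experiment 2, a rise of 0.95 with no overlap (adjusted p = 4.41e-07). Spaca7, an acrosome protein, was 12.03, 12.11 and 12.33 against 10.84, 10.69, 11.04, 10.75 and 10.75, and fell by 1.33 (adjusted p = 2.67e-05). Izumo3 rose by 1.12 and Crisp2 by 0.86, both proteins of the sperm head. Of 39 genes of the flagellum and fibrous sheath, 5 rose and 6 fell, and the median was -0.14. Cfap43, a protein of the axoneme, was 8.57, 8.76 and 8.99 against 10.69, 10.60, 10.87, 10.85 and 10.90, a rise of 2.01 (adjusted p = 2.33e-17) with the groups far apart. A second Cfap43 probe was not called. Slc9c1, the sodium-proton exchanger of sperm, was 11.29, 11.55 and 11.78 against 9.77, 10.03, 9.89, 9.94 and 9.97, and fell by 1.62 (adjusted p = 2.91e-15). Cfap69, an axoneme protein, rose by 0.70 and Catsperg2, a subunit of the sperm calcium channel, fell by 0.75. With median centring of the arrays the medians of these lists turned positive, to 0.15 for the acrosome and 0.07 for the flagellum, where the median over all genes moved to 0.14.

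Of 19 measured germ-cell enzymes and sugar transporters of energy metabolism, 7 rose and 1 fell, with a median of 0.28. The share called was 42.1%, beside 27.8% of all genes (14.5% higher and 13.3% lower). The single fall was called in no fit without replicate 1 of experiment 1 or without any 1 array of experiment 2. Gk2, a glycerol kinase of the testis, was 9.42, 9.75 and 9.84 against 10.99, 11.02, 10.95, 11.03 and 10.95, a rise of 1.31 (adjusted p = 7.40e-10), and every experiment 2 array was above experiment 1. Pdhb, of pyruvate dehydrogenase, rose by 0.82 and Eno4, the enolase of sperm, by 0.53, although the mean of the Eno4 probes did not pass (adjusted p = 0.26). Of 71 nuclear genes of oxidative phosphorylation 23 rose and 1, Ndufs5-ps, fell by 0.45, with a median of 0.14. The share called was 33.8%, beside the same 27.8% and beside 33.8% of the genes above background on all 11 arrays. Cox8c and Cox6b2 are on this list and on that of energy metabolism, so that their rises are counted in both. With cyclic loess 21 of the 71 rose and 3 fell. Among them Atp5h, of ATP synthase, was 9.14, 9.31 and 9.45 against 9.91, 10.09, 9.89, 10.06 and 9.97, a rise of 0.68 without overlap. Ndufb2 and Ndufb5, subunits of complex I, rose by 1.01 and 0.96. Ndufb10, another subunit, was 5.03, 5.90 and 6.08 against 9.06, 8.52, 8.77, 8.55 and 8.72 with its brightest probe, a rise of 3.00 (adjusted p = 7.79e-14). A second Ndufb10 probe fell by 2.57, so that the direction of this gene depends on the probe and the mean of its probes did not pass (0.22, adjusted p = 0.37). With median centring 37 of the 71 rose and none fell. Of 7 measured genes of the mitochondrial genome, a list made after their values were seen, 5 rose: ATP6 by 1.47, COX2 by 1.39, ND1 by 1.22, ND5 by 1.12 and CYTB by 0.42. ND4 was 0.17 higher (adjusted p = 0.40) and ND4L was not above background.

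Of 35 measured clustered genes for core histones H2A, H3 and H4 and linker histones, 16 rose (45.7%) and none fell, with a median of 0.29, and of 9 H2B genes other than H2bc1 3 rose (33.3%) and none fell, with a median of 0.34. Of all genes 14.5% rose and 27.8% were called. H2ac22 was 7.26, 7.52 and 8.44 in experiment 1 and 10.09, 9.58, 9.73, 9.35 and 8.83 in experiment 2, a rise of 1.89 with an SE of 0.30 (adjusted p = 4.18e-06). The groups did not overlap, and replicate 1 was the highest of experiment 1. H2ac12 rose by 1.34 (adjusted p = 0.0010) and H2bc9 by 0.98 (adjusted p = 0.00051). H2bc4 was 4.33, 4.89 and 6.81 against 8.12, 8.15, 5.14, 8.07 and 4.99, so that replicates 1, 2 and 4 were high and the groups overlapped (1.57, adjusted p = 0.027). Its call was lost without any 1 of replicates 1, 5 and 6 of experiment 1 and 1, 2 and 4 of experiment 2, with adjusted p from 0.057 to 0.11. The same numbers read 6.44 to 7.05 in spermatocytes and the other 2 numbers 5.46 and 5.52. Near-identical histone genes may share probe signal, so that the member behind a value is uncertain. Without replicate 2 of experiment 1 the number of the 35 that rose was 11, the lowest of 11 such fits. Of 15 histone variants, 3 rose and 1 fell (26.7% called). H3f3b, an H3.3 gene, rose by 1.40 from 7.74, 8.35 and 8.50 to 9.76, 9.55, 9.43, 9.80 and 9.54. H2aj, an H2A variant, was above background on no array of experiment 2 and at least 1.64-fold lower there.

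Chromatin and RNA regulators moved in both directions. The share called was 33.3% for histone removal and remodelling, 32% for the spermatid regulators, 33.3% for the kinases and 31.6% for the piRNA pathway. It was 27.8% over all genes and 33.8% over genes above background on all 11 arrays, as most members of these lists were. Of 30 genes for histone removal and chromatin remodelling 8 rose and 2 fell, with a median of 0.00, among them the deacetylase Hdac2 (0.94) and the remodelling subunit Actl6a (1.05), and 1 fell without any 1 of replicates 2 and 4 of experiment 1 and 3 and 5 of experiment 2. Brdt, the bromodomain protein of germ cells that the labels' genotype field names, was bright in both groups. It was 11.56, 11.75 and 11.85 in experiment 1 and 10.97, 10.90, 10.93, 10.99 and 11.18 in experiment 2, and fell by 0.72 (adjusted p = 2.86e-06). Of 25 regulators of transcription and translation in spermatids, Brdt included, 5 rose and 3 fell. Of 9 testis serine kinases 2 rose and 1 fell, with Stk33 at 1.27 and Tssk5 at -1.18, and 1 rose without any 1 of replicates 1 and 2 of experiment 1 and 1, 2, 4 and 5 of experiment 2. Of 19 piRNA pathway genes 4 rose and 2 fell, and the 2 falls were at most 1 in number without any 1 of replicates 2, 4, 5 and 6 of experiment 1 and 2 to 5 of experiment 2. Piwil1, the PIWI protein of pachytene spermatocytes and spermatids, was 9.90, 10.17 and 10.72 against 11.36, 11.42, 11.21, 11.15 and 11.02, and rose by 1.01.

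Marker genes of other germ cells were also compared, since a purified fraction can hold other cells. Called were 66.7% of the spermatocyte markers, 30.8% of the meiotic genes and 31.8% of the spermatogonial genes, beside 27.8% of all genes. Of 6 measured spermatocyte markers 4 rose and none fell, with a median of 0.93. Their mean level was 7.25 to 7.71 on the experiment 1 arrays and 8.40 to 8.58 on the experiment 2 arrays. In the wild-type spermatocytes it was 8.07 to 8.75 in experiment 1 and 8.87 to 9.34 in experiment 2, so that the experiments differed in the same direction in both cell types. In bulk RNA a change in the number of cells of a type and a change in their RNA per cell cannot be told apart. Meiob, a meiotic recombination factor, rose by 1.71, Syce1 and Sycp2, of the synaptonemal complex, by 1.51 and 1.24. Sycp2 was 7.08, 7.53 and 7.86 in experiment 1 and 9.11, 8.65, 8.78, 8.75 and 8.38 in experiment 2, with no overlap. Among 39 genes of meiotic prophase and division 8 rose and 4 fell, with a median of 0.06, and Plk1 was the one that fell furthest. Of 22 spermatogonial genes 6 rose and 1 fell, with 2 falling without replicate 5 of experiment 1 or 4 of experiment 2. The part of such cells in the other results was not tested.

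Markers of somatic cells of the testis ranged from bright to absent, and many of those of blood cells were lower in experiment 2. Called were 61.1% of the macrophage and blood, 21.4% of the Leydig and 12.5% of the peritubular, matrix and vessel markers, beside 27.8% of all genes. Of 18 measured macrophage and blood markers none rose and 11 fell (61.1%), with a median of -0.70, and their mean level was 6.08 to 6.88 in experiment 1 and 5.69 to 6.04 in experiment 2. Fcer1g, a signalling chain of Fc receptors, was 4.68, 5.73 and 6.14 against 4.45, 4.36, 4.29, 4.31 and 4.28, where no array was above background, and was at least 1.59-fold lower (adjusted p = 3.73e-08). Lyz2, lysozyme, was 6.45, 7.34 and 7.88 against 6.35, 6.33, 5.44, 5.73 and 5.96, and fell by 1.35. The groups did not overlap for either gene. The count of 11 became 7 without replicate 1 and 6 without replicate 5 of experiment 1, 7 without replicate 5 of experiment 2, 8 with cyclic loess and 4 with median centring. Of 24 markers of these cells on the array 9 were above background on all 11 arrays and 6 on none. The 9 included Hbb-bs (means of 7.79 and 6.56 in experiments 1 and 2), H2-Ab1 (8.42 and 7.73) and C1qb (7.67 and 7.14, not called). The 6 were Adgre1, H2-Aa, Hbb-b2, Ptprc, Slc4a1 and Tyrobp. Whether such cells had a part in the Fcmr, Cd96 and Casp1 differences, which run the same way, was not tested, and Fcgr3 ran the other way. Of 15 Sertoli cell markers none passed in either direction, although 1 fell without replicate 3, 4 or 5 of experiment 1. Of 14 Leydig cell markers 3 fell, and of 24 peritubular, matrix and vessel markers 1 rose and 2 fell, with 2 rising without replicate 5 of either experiment. Of 26 Sertoli cell markers on the array 10 were above background on all 11 arrays and 6, with Amh, Gdnf and Kitl, on none. Aard (mean 9.74 in both experiments) and Cst9 (9.29 and 8.73 in experiments 1 and 2) were among the 10. Of 17 Leydig cell markers 8 were above background on all 11 arrays and 5, with Star, Hsd3b1 and Hsd17b3, on none. Insl3 (9.92 and 9.42) and Cyp17a1 (8.02 and 7.20) were among the 8.

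Stress and housekeeping genes also moved in both directions. The share called was 36% for heat shock, 21.1% for immediate early and 16.7% for p53 and apoptosis genes. It was 43.6% for ribosomal protein, 27.5% for proteasome and 20% for tubulin genes, beside 27.8% of all genes. Of 25 heat shock and chaperone genes 8 rose and 1 fell, 2 without replicate 1 of either experiment, and 13 rose with median centring. Hspa4, a chaperone of the HSP110 family, was 5.62, 6.09 and 6.43 against 7.73, 7.42, 7.78, 7.50 and 7.54, and rose by 1.52. Hsp90aa1, the inducible HSP90, rose by 1.40 with its brightest probe, while its other probes gave -0.03 and 0.59. Of 19 immediate early genes 3 rose and 1 fell, with a single rise without replicate 6 of experiment 1 and without replicate 1 or 3 of experiment 2. Of 18 p53 and apoptosis genes 2 rose and 1 fell, and the rises were 1 to 3 as single arrays were left out. Of 55 ribosomal protein genes 17 rose and 7 fell, with a median of 0.12, and the falls were 3 or 4 without any 1 of replicates 2 and 5 of experiment 1 and 2, 3 and 5 of experiment 2. Rpl30 was 9.12, 9.27 and 9.51 against 8.07, 7.86, 8.20, 7.99 and 8.08, and fell by 1.24 (adjusted p = 5.17e-10). Of 40 proteasome genes, Psmd8 included, 8 rose and 3 fell, and 5 rose without replicate 1 or 2 of experiment 1. Of 15 tubulin genes none rose and 3 fell: Tubb6 by 1.39 (adjusted p = 0.0041), Tubd1 by 1.01 and Tuba1b by 0.82. Replicate 4 of experiment 2 stood apart for Tubb6, at 9.70 against 7.38 to 7.82 on the other 4 arrays, and the mean of the Tubd1 probes did not pass (adjusted p = 0.19).

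Genes known to vary in structure, copy number or function among laboratory mouse strains were listed too, and 36.8% of those measured were called, beside 27.8% of all genes. Of these 19 genes 4 rose and 3 fell, with 1 fall without replicate 5 of experiment 1 or replicate 1 or 5 of experiment 2, and 16 of the 34 on the array were above background on none of the 11 arrays. Slc11a1, a metal ion transporter of phagocytes with a known loss-of-function allele in some strains, was 6.28, 6.46 and 6.81 in experiment 1. It was 7.72, 7.70, 7.62, 7.91 and 7.66 in experiment 2, a rise of 1.24 (adjusted p = 2.89e-10) with no overlap. Glo1, glyoxalase 1, whose copy number varies between strains, was 7.81, 7.90 and 8.13 against 9.29, 9.11, 8.64, 8.56 and 9.35, and rose by 1.05. Replicates 3 and 4 were the lowest of experiment 2, and spermatocyte replicates 3 and 4, at 8.78 and 8.92, were also below the other 3, at 9.70 to 9.93. Of 28 genes of antigen presentation and the MHC 4 rose and 6 fell (35.7% called), with H2-K1, a class I molecule, at 1.16 and groups that overlapped. Of 21 interferon-response genes 4 rose and 2 fell (28.6% called). Irgm1, an immunity-related GTPase, was 9.17, 9.82 and 9.98 against 11.47, 11.27, 11.38, 11.42 and 11.03, and rose by 1.57. Of 214 zinc finger genes 21 rose and 28 fell (22.9% called). Of 20 glutathione transferase genes 3 rose and 4 fell (35% called), with 2 falling without replicate 2 of experiment 2. Of 20 multicopy X and Y genes and single-copy Y genes 3 rose and 1 fell (20% called), with Sly, a multicopy Y gene of spermatids, at 1.06 and Eif2s3y at 0.84.

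**Figure D5:**
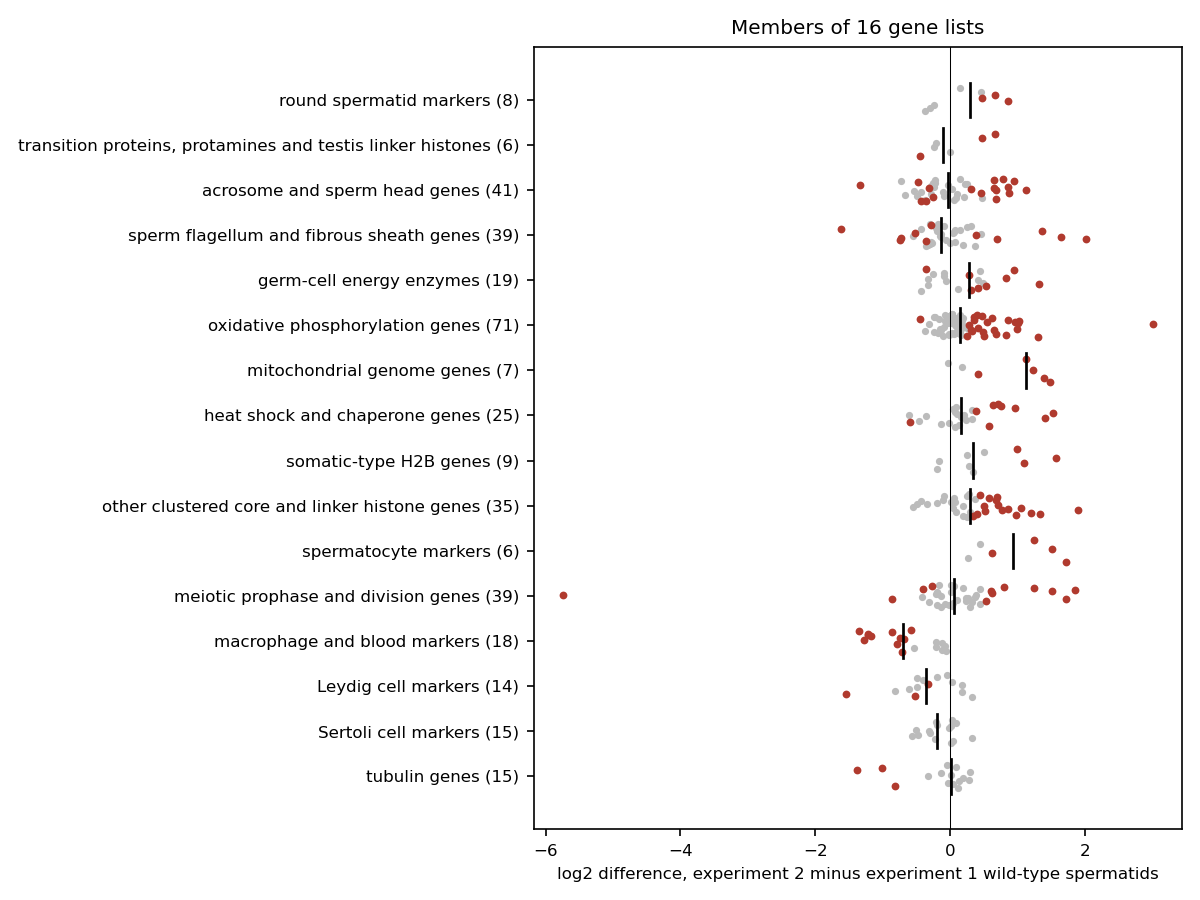
Log2 difference of each measured member of 16 of the gene lists in wild-type spermatids, experiment 2 minus experiment 1, 1 point per gene, red where the adjusted p was under 0.05 and grey where it was not. The black bar is the median of the members and the number measured stands in parentheses; spermatocyte markers, with a median of 0.93, lie to the right of 0 and macrophage and blood markers, with -0.70, to the left.

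Where a gene had further probes, these gave a second reading of the same arrays. The 587 genes with an at least 2-fold difference included 211 with other kept probes, in 304 pairs of probes. Over all 3408 called genes there were 2009 such pairs, of which 576 second probes passed in the same direction (28.7%) and 169 in the opposite one (8.41%). Of the 1076 second probes above background on all 11 arrays, 403 (37.5%) and 117 (10.9%) did so. For the at least 2-fold genes 124 passed in the same direction (40.8%), 17 in the opposite one (5.59%) and 163 did not pass. Where the second probe was above background on all 11 arrays, 69 of 123 passed in the same direction (56.1%) and 9 in the opposite one (7.32%). Cptp and Dedd, an apoptosis adaptor, had second probes of opposite direction, -0.84 beside 3.44 and -0.68 beside 0.73. The probe sequences were not used here. Whether the mice of the 2 experiments differ in sequence under a probe, and whether a lost signal is a loss of mRNA, was therefore not tested.

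The at least 2-fold genes, 4.79% of those tested, lay on many chromosomes. Of 436 windows of 2 Mb with at least 10 tested genes, 196 held none of them. The window with the most was on chromosome 1, where 10 of 32 genes (31.2%) passed by at least 2-fold and 17 were called, 5 higher and 12 lower. It holds Uap1, Uhmk1, Dusp12, Fcgr3, Tomm40l, Fcer1g, Usp21, Ufc1, Arhgap30 and Ly9, and between them lie genes such as Spata46 and Pfdn2 that did not pass (-0.23 and 0.10, with adjusted p = 0.57 and 0.71). Fcgr3 rose by 3.75 there while Uap1 fell, so that neighbours went in opposite directions. A window of chromosome 8 held 8 among 41 genes, Klf1 and Syce2 among them, and on that chromosome 60 of 670 genes (8.96%) differed by at least 2-fold. On the X chromosome it was 11 of 389 (2.83%), and the other autosomes ran from 2.89% on chromosome 18 to 6.85% on chromosome 1. These windows were chosen after their values were seen.

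Genes that start back to back share the DNA between them, and 456 such pairs, with starts at most 500 bases apart, had both genes tested. Both genes were called in 65 pairs, 34 in the same and 31 in opposite directions. The 27.8% called among single genes is no reference for pairs, and how often 2 unrelated genes were both called was not computed. Both differed by at least 2-fold in 5 pairs. In 4 of these the genes went the same way: Noxo1 and Gfer (1.57 and 3.00, starts 78 bases apart), 4933405L10Rik and Enkd1 (1.23 and 1.01, 81 bases), H2bc15 and H2ac15 (1.09 and 1.19, 164 bases) and Sars2 and Mrps12 (-1.02 and -1.11, 147 bases). In the remaining pair, with starts 162 bases apart, Map4k1 fell by 4.55 and Eif3k, a subunit of a translation initiation factor, rose by 1.14. The Map4k1 and Sars2 pairs are neighbours on chromosome 7, so that the 5 pairs are not 5 separate regions. Sirt2 and Psmd8 (2.32 and -3.18), described above, lie in the same stretch. Eif3k was 8.29, 8.60 and 9.01 in experiment 1 and 9.84, 9.65, 9.96, 9.82 and 9.67 in experiment 2, without overlap. Noxo1, an organizer of NADPH oxidase, was 8.05, 8.20 and 8.47 against 9.80, 9.92, 9.85, 9.72 and 9.67, and a second Noxo1 probe gave 0.70. Pkd1, polycystin, in the same stretch of chromosome 17, fell by 2.15 (adjusted p = 9.21e-12). Ndufb10, whose probes went in opposite directions, lies in that stretch too.

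The shared starts of 3 pairs are shown because they join 2 genes that moved together or apart. They are reference sequences from RefSeq, build GRCm38.p6, plus strand, from 250 bases before to 50 bases after the start of the first gene, and the mice may differ from them. Capitals mark CCAAT and TATAAA on either strand (ATTGG and TTTATA on the other); the 2 motifs do not overlap. Map4k1 (chr7:28981800-28982099) holds 1 CCAAT, Noxo1 (chr17:24695984-24696283) neither motif and H2bc15 (chr13:21753826-21754125) 3 CCAAT and 1 TATAAA. Over all 32817 promoter windows of this length, 37.4% hold CCAAT and 13.6% hold TATAAA.
Map4k1: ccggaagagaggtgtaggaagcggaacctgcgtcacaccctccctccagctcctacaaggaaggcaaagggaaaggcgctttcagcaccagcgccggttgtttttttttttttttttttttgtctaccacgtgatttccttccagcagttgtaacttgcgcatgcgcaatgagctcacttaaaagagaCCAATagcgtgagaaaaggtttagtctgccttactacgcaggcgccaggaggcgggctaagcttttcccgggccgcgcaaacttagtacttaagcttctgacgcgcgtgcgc
Noxo1: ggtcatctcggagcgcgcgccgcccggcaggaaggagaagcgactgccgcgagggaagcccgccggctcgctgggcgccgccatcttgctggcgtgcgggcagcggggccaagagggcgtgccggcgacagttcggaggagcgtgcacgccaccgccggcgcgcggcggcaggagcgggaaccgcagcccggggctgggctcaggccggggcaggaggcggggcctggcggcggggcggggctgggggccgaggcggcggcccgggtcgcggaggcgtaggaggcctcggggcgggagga
H2bc15: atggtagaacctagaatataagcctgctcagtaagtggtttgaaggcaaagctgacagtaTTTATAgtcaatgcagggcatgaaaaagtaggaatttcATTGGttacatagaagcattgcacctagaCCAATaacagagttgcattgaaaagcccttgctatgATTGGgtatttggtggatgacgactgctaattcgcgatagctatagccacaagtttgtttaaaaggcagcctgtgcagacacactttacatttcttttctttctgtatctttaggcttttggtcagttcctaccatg
A match is a description of the letters, and nothing about the binding of a factor was measured. The H2bc15 window is the only one of the 3 with both motifs. Each window runs past the start of the second gene of its pair. The TATAAA match of the H2bc15 window lies beyond the H2ac15 start, and not in the DNA between the 2 starts. H2bc15 itself was 4.81, 5.16 and 5.81 against 6.69, 6.67, 5.79, 6.84 and 5.60, and H2ac15 was 9.20, 9.39 and 10.19 against 11.15, 10.46, 10.88, 10.72 and 10.18. For both histone genes the groups overlapped, with replicates 3 and 5 of experiment 2 low for H2bc15 and replicate 5 low for H2ac15 (adjusted p = 0.0012 and 0.0017).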

How the data were processed

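Arrays were Illumina mouse BeadChips with 45281 probes, hybridized with amplified, biotin-labelled RNA per the labels' protocols. Per the file headers, the deposited raw values are a mean bead intensity for each probe and array, not normalized, and a detection p-value against negative control beads. The deposited processed file holds an intensity that the authors quantile normalized without background subtraction, judging from array medians of 104.27 to 104.36. No source used here names the software.

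Raw intensities of all 44 arrays were corrected with normexp from detection p-values, given an offset of 16, quantile normalized and turned into log2 values (neqc in limma 3.58.1, R 4.3.3). Probes with a detection p under 0.05 on at least 5 arrays were kept (22605). Of these, 18813 had 1 gene name, 3792 none, and the brightest of each gene stood for it (12259 genes). Of 45281 probes 34885 had 1 gene name, 18 several and 10378 none, and 34807 were matched to current symbols by Entrez ID, 11 by accession and 67 kept the platform symbol. All arrays entered a model with 8 group means (lmFit, eBayes, two-sided), with Benjamini-Hochberg adjustment over all genes. The fit of the main comparison was run on simulated gene values with known changes and independent normal noise. Background correction, normalization, filter and choice of probe were not part of that simulation.

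Members and lists were chosen with earlier results of these data known. Named were the 15 largest called differences in each direction among genes above background in both groups, the 8 largest bounds in each direction, H2bc1 and H2ac1, up to 4 genes of smallest p per list, and the 6 largest differences in each direction between cell types; others, such as neighbouring genes, were named after their values were seen. The precision is limited by how few arrays there are and by dim probes. Replicate numbers did not pair the experiments (same-number correlations of -0.11 to 0.05). Alternatives were the deposited processed values, other background corrections, normalizations, filters, offsets, probe summaries, variance models and fits, and single arrays left out.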

Additional observations from a re-analysis of the deposited data

Results flagged for a closer look

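In 334 groups of arrays tested, 35 held an array whose gap to the nearest other was large against the range of its group, and chance gives about 1 in 20. Many lay in replicate 1 of experiment 1. It read 16150 probes above background (others 16817 to 17079) and 39.2 on the second principal component. Its gene levels stood apart for Cops8 (7.98), Spata7 (9.46), Grtp1 (7.29), Catsperg2 (9.65), H2ac22 (8.44), H2ac12 (10.16), Cyb5a (7.06), Jund (10.09), Tubd1 (8.47) and Zfp943 (8.75). The Jund call, a fall of 0.88, was lost without that array (adjusted p = 0.067) and without replicate 1 of experiment 2 (adjusted p = 0.069).

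In experiment 1, replicate 2 stood apart for Cfap69 (11.48) and Cst9 (9.85), replicate 3 for Alas2 (4.81), Nlrc5 (4.83) and Irgm1 (9.17), and replicate 6 for Olfr611 (4.74) and Cpeb2 (12.33). In experiment 2, replicate 1 stood apart for Sall4 (6.85), and replicate 3 for Actl6a (10.06) and Mgst2 (8.20). Replicate 2 did so for Lrrc18 (9.44), Cops8 (7.14), Psg19 (6.17), Olfr611 (6.88), Tssk5 (7.70) and Zfp296 (6.74). Replicate 4 was apart for Gfer (11.84), Rdm1 (7.52), Grtp1 (4.65), Cbr1 (6.80) and Tubb6 (9.70), and replicate 5 for Oit1 (8.32) and Zfp263 (8.61). The Grtp1 value of experiment 2 and the Olfr611 value of experiment 1 had no signal over background.

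The difference between the experiments differed between spermatids and spermatocytes, by the test of that difference, for 12 named genes. It was more positive in spermatids for Olfr611 (2.11), Pnmal1 (2.08), Csmd1 (2.03), Klk1b22 (2.02), Vars2 (2.02) and Gm2897 (1.98). It was more negative for Kcnab1 (-2.73), Cstdc3 (-2.41), Defb11 (-2.30), Adh7 (-2.12), Dmkn (-2.10) and Cmya5 (-1.96). For Olfr611, Kcnab1 and Cmya5 the spermatids of experiment 1 had no signal over background, for Pnmal1, Cstdc3, Defb11, Adh7 and Dmkn those of experiment 2, and for Klk1b22 both, so that the sizes for these 9 genes rest in part on spermatid arrays without signal. In spermatocytes, Gm2897 on every array and Csmd1 in experiment 1 (4.42 to 4.81) were near the level of probes without signal, so that their sizes are uncertain too.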

How the results depend on the processing

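Of the 3408 genes, other planned settings gave 3052 to 4705, all within 1.5 times: 3372 with the deposited processed values, 3365 without background correction, 4705 with array weights, 4093 with the 22 spermatid arrays alone, 4052 with the groups compared alone, 3636 with the replicate block (2977 of them among the 3408), and 2710 in an alternative chosen after seeing the data, with probes above background on all 11 arrays. Leaving out 1 array gave 2956 to 3241. The direction depends on the scaling: with median centring, which moved the median of all genes to 0.14, 3629 passed, 3017 higher and 612 lower (83.1% higher against 52.1%). At least 2-fold differences numbered 587, but 182 with the deposited values, 164 without background correction and 297 with an offset of 50; for the spermatocytes they were 623, 237 and 212, for th2bkd against Th2b+/tag 1286, 436 and 376, and for the difference between cell types 92, 29 and 24. The 205 genes that differed between cell types became 317 without background correction, 539 with array weights and 428 with same-numbered arrays as a random block (consensus correlation 0.21); the cause was not tested. They were 248 with the replicate block and 147 (without wild-type spermatid replicate 3 of experiment 2) to 213 with 1 array left out. The 5228 genes of th2bkd against Th2b+/tag ran from 4698 to 5300 with 1 array left out and were 5175 with the replicate block, and the 3158 of the spermatocytes 2621 to 3396 and 2185. Of 4100 values under alternatives, for 162 results on named genes past the threshold, 4025 kept direction and call, 72 lost the call (of 150 named called genes 126 kept it throughout and 8 lost it with 1 array left out) and 3 reversed: H3c14 (-0.019) and Tnfrsf10b (-0.072) with the mean of the gene's probes, and Tnfrsf10b (-0.41) with the spermatid arrays alone. Tubb4b, not called, turned to 0.071 with median centring. The cause was not tested. Signal over background limits dim genes: 589 genes were above background on none of the 11 arrays.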

Other observations

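Of the 3792 kept probes without a gene name, 1031 passed between the wild-type spermatids of the experiments (27.2%) in a fit over all kept probes, 210 of them by at least 2-fold, and these are not described by gene here.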
